A study of Mus musculus with 2 samples.

Results

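Cholesterol is made in nearly every animal cell from acetyl-CoA by the mevalonate pathway and a following series of sterol steps, and cells that divide or lay down membrane and skin lipid use it heavily. When sterol in the endoplasmic reticulum is scarce, the escort protein SCAP carries the transcription factors SREBP1 and SREBP2 to the Golgi, where they are cut and released to switch on the enzymes, while the INSIG proteins hold SCAP back when sterol is plentiful. Skin and its sebaceous glands are among the tissues that make the most sterol, and macrophages are known for taking up, storing and oxidising cholesterol from engulfed cells.

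The 28 genes described here cover this pathway, out of 32285 genes in the feature list, and were chosen by name: 7 enzymes of the mevalonate steps (Acat2, Hmgcs1, Mvk, Pmvk, Mvd, Idi1 and Fdps), 11 enzymes of the sterol steps (Fdft1, Sqle, Lss, Cyp51, Tm7sf2, Msmo1, Nsdhl, Hsd17b7, Ebp, Sc5d and Dhcr7), 5 genes of sterol sensing (Srebf1, Srebf2, Scap, Insig1 and Insig2), and 5 genes of transport, storage and oxysterol production (Stard4, Npc1, Npc2, Ch25h and Soat1). All 28 matched exactly by symbol. Other genes of cholesterol synthesis and uptake were not analysed here.

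Both groups were male mice of strain C57BL/6, 8-10 weeks old, with a dorsal burn over 30% of the body and a cut left Achilles tendon, and the injury site was taken on day 7. The irradiated group had the site exposed once to 7 Gy of X-rays, while the control group had the same injury and no radiation. The labels name irradiated arms of 10 mice each, treated on day 1 or day 3 after surgery, and the series text points to day 3. There was 1 10x Genomics 3' library of unsorted cells per group, and the number of mice in it is not given in the sources used here, so treatment, library and mouse cannot be told apart and no p-value was computed.

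The irradiated library held 7116 cells after filtering with a median of 10139 UMIs (unique molecules counted), and the control library 8711 cells with a median of 13251. Cells of both libraries were clustered together without the 28 genes and named from marker genes into 12 classes, each called by its likeness. The tissue matched its label: tendon markers summed to 3605 CPM (a gene's UMIs per 1000000 UMIs) in irradiated and 2953 CPM in control mesenchymal-like cells, with all 9 markers seen. A level below is the CPM of the summed UMIs of a class in a library, with no division by transcript length since only 3' ends were read. Ratios are log2 of irradiated over control, given where a class held 200 or more cells in both libraries (6 classes), and intervals are 95% Poisson or binomial intervals that cover counting error only. A gene was called higher or lower at 1.5-fold or more with an interval that leaves out equality and at least 20 UMIs over both libraries. In such sums, fewer expressing cells and less RNA in each cell cannot be told apart.

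The 18 synthesis enzymes, summed, stood at a lower level in the irradiated library in 12 of the 12 named classes. These classes come from the same pair of libraries and are not replicates of each other. Macrophage and monocyte-like cells had 218 CPM of enzyme transcripts (212 to 224) in the irradiated and 326 CPM (318 to 335) in the control library, a log2 ratio of -0.58 (-0.64 to -0.53). Keratinocyte-like cells, from the overlying skin, had 845 CPM in the irradiated and 1148 CPM in the control library (-0.44, -0.46 to -0.42). Neutrophil-like cells, the class with the lowest level, had 143 CPM in the irradiated and 209 CPM in the control library (-0.55, -0.71 to -0.39).

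By CPM the difference was smaller in the other 3 classes with ratios. Endothelial-like cells had 277 CPM in the irradiated and 351 CPM in the control library (-0.34, -0.42 to -0.26), and mesenchymal-like cells 375 CPM in the irradiated and 455 CPM in the control library (-0.28, -0.32 to -0.24). Dendritic-like cells had 506 CPM in the irradiated and 546 CPM in the control library, and the interval of their ratio, -0.11 (-0.24 to 0.02), held equality. The median over all genes tested was -0.12 in macrophage and monocyte-like cells, -0.34 in neutrophil-like cells and between -0.03 and 0.01 in the other 4 classes. Relative to a trimmed mean over all genes, the enzyme ratio was -0.45 in macrophage and monocyte-like, -0.43 in keratinocyte-like and -0.15 in neutrophil-like cells. On the same scale it was -0.38 in endothelial-like, -0.29 in mesenchymal-like and -0.05 in dendritic-like cells. The place of neutrophil-like cells in the order of classes thus depended on the scaling.

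The smaller classes held too few cells for ratios. The sebocyte-like cells, 19 irradiated and 41 control cells of the lipid-secreting gland of the skin, had the highest level of any class, with 9415 CPM in the irradiated and 12112 CPM in the control library. Melanocyte-like cells had 671 CPM in the irradiated and 1139 CPM in the control library, and Schwann-like cells, the glia that wrap peripheral nerve in cholesterol-rich myelin, 580 CPM in the irradiated and 664 CPM in the control library. Pericyte and smooth muscle-like cells had 331 CPM in the irradiated and 474 CPM in the control library, lymphatic endothelial-like cells 326 CPM in the irradiated and 516 CPM in the control library, and T and NK-like cells 251 CPM in the irradiated and 357 CPM in the control library. The intervals of the 2 libraries lay apart in 11 of the 12 classes, dendritic-like cells being the exception. These intervals cover counting error alone and not the spread between cells. The melanocyte-like class held 10 irradiated and 12 control cells, and the lymphatic endothelial-like class 45 irradiated and 55 control cells.

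**Figure D1:**
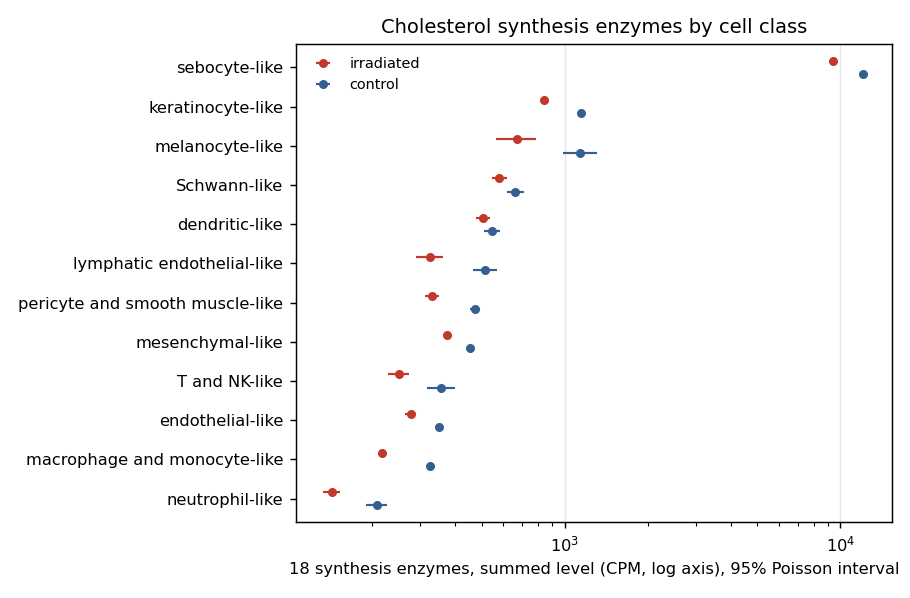
Summed level of the 18 synthesis enzymes (CPM, log axis) in each named class, with 95% Poisson intervals of counting error; red points are irradiated and blue points control cells. The irradiated point lies left of the control point in all 12 classes, from neutrophil-like cells (143 and 209 CPM) up to sebocyte-like cells (9415 and 12112 CPM).

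Cells differ in depth, so shares of cells were taken after drawing 2000 UMIs from each cell, without the cells that had fewer. Among macrophage and monocyte-like cells 32.9% (31.1 to 34.8) of irradiated and 43.9% (41.7 to 46.2) of control cells then held at least 1 enzyme UMI; at full depth the shares were 76.2% and 78.7%, for irradiated and control cells. Among keratinocyte-like cells the thinned shares were 65.7% (62.9 to 68.3) of irradiated and 79.2% (77.4 to 81.0) of control cells, and among mesenchymal-like cells 44.0% (40.1 to 48.0) of irradiated and 51.9% (49.9 to 54.0) of control cells. In these 3 classes the intervals lay apart. Thinned shares in neutrophil-like cells were 23.8% (21.3 to 26.4) of irradiated and 30.6% (26.4 to 35.1) of control cells, with 166 irradiated and 372 control cells too shallow to use. In endothelial-like cells they were 35.4% (30.4 to 40.6) of irradiated and 40.6% (36.5 to 44.8) of control cells, and in dendritic-like cells 58.4% (51.3 to 65.3) of irradiated and 59.7% (52.5 to 66.6) of control cells, with intervals that overlap in both classes.

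In macrophage and monocyte-like cells 13 of the 28 genes were lower in the irradiated library and 1 was higher; over all genes tested in this class 11.5% were lower and 6.38% higher by the same rule. Of the 18 enzymes 12 were lower, with a median ratio of -0.68. The mevalonate steps carried 5 of these calls. Hmgcs1, which makes HMG-CoA, stood at 23.8 CPM in irradiated and 37.4 CPM in control cells (-0.65, -0.81 to -0.49). Idi1, the isomerase that forms dimethylallyl diphosphate, stood at 9.21 CPM in irradiated and 19.3 CPM in control cells (-1.06, -1.31 to -0.82). Fdps, which joins these units into farnesyl diphosphate, stood at 13.3 CPM in irradiated and 27.6 CPM in control cells (-1.05, -1.26 to -0.85).

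Mvd, the decarboxylase before the isomerase, stood at 5.67 CPM in irradiated and 10.7 CPM in control cells (-0.92, -1.24 to -0.60). Pmvk, the kinase that precedes it, had a ratio of -0.70 (-0.85 to -0.55). Mvk, the first kinase, reached 4.85 CPM in irradiated and 6.89 CPM in control cells, a ratio of -0.51 that is short of the fold, and Acat2, which condenses acetyl-CoA at the entry, 7.05 CPM in irradiated and 6.89 CPM in control cells. Acat2 lies beside a close copy, Acat3, and reads that match both may have been lost.

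Among the sterol steps 7 of 11 enzymes were lower in macrophage and monocyte-like cells. Hsd17b7, a ketoreductase of sterol demethylation, was at 1.94 CPM in irradiated and 5.31 CPM in control cells (-1.45, -1.97 to -0.95, from 52 and 91 UMIs in irradiated and control cells). Sqle, the squalene epoxidase, was at 6.49 CPM in irradiated and 11.2 CPM in control cells (-0.78, -1.09 to -0.48), and Lss, the cyclase that forms lanosterol, at 1.04 CPM in irradiated and 1.93 CPM in control cells (-0.88, -1.66 to -0.11). Sc5d, a desaturase of a late step, was at 8.65 CPM in irradiated and 15 CPM in control cells (-0.79, -1.06 to -0.53). Fdft1 (squalene synthase, -0.70), Cyp51 (lanosterol demethylase, -0.66) and Dhcr7 (the reductase of the last step to cholesterol, -0.60) were also lower. Msmo1, a methyl oxidase, had -0.54, and Nsdhl, Ebp and Tm7sf2 had -0.08, -0.11 and 0.20, with intervals that held equality for these 3. The calls in this class were thus spread over both stretches of the pathway.

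**Figure D2:**
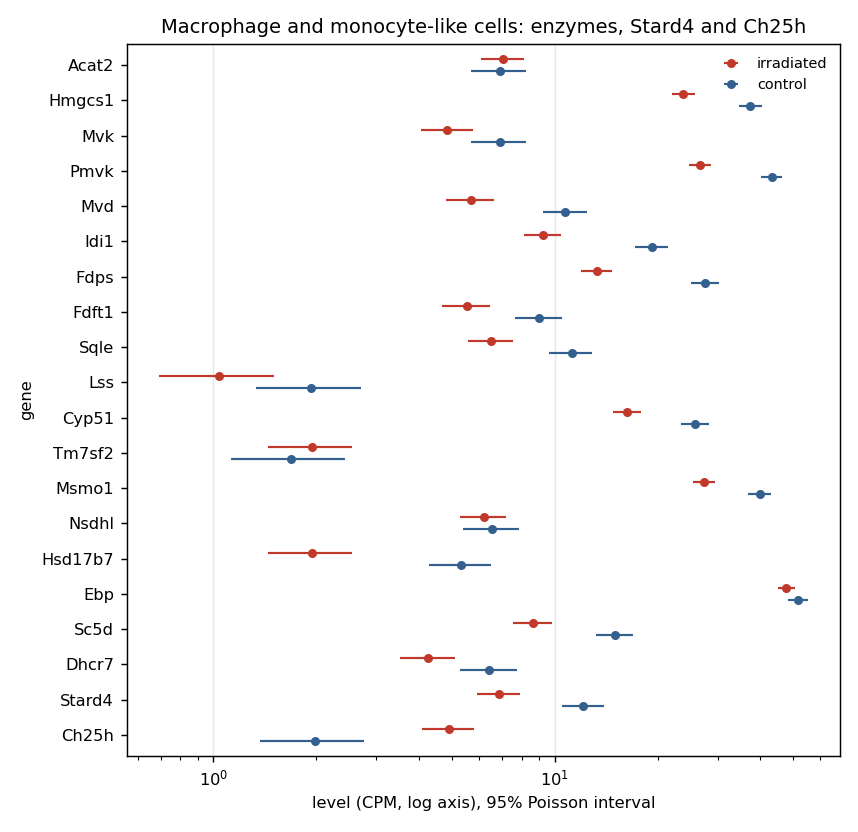
Levels (CPM, log axis) of the 18 synthesis enzymes, Stard4 and Ch25h in macrophage and monocyte-like cells, red for irradiated and blue for control, with 95% Poisson intervals. Most enzymes lie lower in the irradiated cells, such as Idi1 at 9.21 and 19.3 CPM, Acat2 and Ebp lie close together, and Ch25h lies higher at 4.89 and 1.99 CPM.

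The macrophage and monocyte-like class was made up differently in the 2 libraries. Its most common cluster was cluster 0 (led by Cd74 and H2-Aa) among irradiated cells, 24.7% of the class, and cluster 2 (led by Ccl8 and C1qc) among control cells, 30.2% of the class. With clusters weighted alike the summed ratio was -0.43, Idi1 had -0.81, Fdps had -0.78 and Hmgcs1 had -0.37. The count of genes called lower was then 7, as it also was with the trimmed mean scaling. The share of all genes called lower at these settings was not computed, so these counts have no background beside them. RNA of other cells moved with the result: keratinocyte markers summed to 213 CPM in irradiated and 634 CPM in control macrophage and monocyte-like cells, and mesenchymal markers to 132 CPM in irradiated and 554 CPM in control cells, 14 of 14 and 12 of 12 markers being lower in irradiated cells. At the enzyme-to-marker ratio of keratinocyte-, mesenchymal- and sebocyte-like cells, this RNA would carry 8.12 CPM of enzyme transcripts in irradiated and 26.8 CPM in control cells. After subtraction the ratio was -0.51.

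SREBP and its partner NF-Y are known to bind sterol genes at a sterol regulatory element and an NF-Y box. The promoters shown are those of Idi1, Mvd and Hsd17b7, which had large differences in macrophage and monocyte-like cells, of Hmgcs1, the 1 gene with a match to the sterol regulatory element, and of Ch25h, the gene that was higher. Sequences are from RefSeq (GRCm38.p6), 250 bases before to 50 after the start, with capitals marking the sterol regulatory element TCACNCCAC and the NF-Y box CCAAT, each searched on both strands; on the other strand the box reads ATTGG. No matches overlap in these windows.
Hmgcs1 chr13:119690101-119690400 (plus strand): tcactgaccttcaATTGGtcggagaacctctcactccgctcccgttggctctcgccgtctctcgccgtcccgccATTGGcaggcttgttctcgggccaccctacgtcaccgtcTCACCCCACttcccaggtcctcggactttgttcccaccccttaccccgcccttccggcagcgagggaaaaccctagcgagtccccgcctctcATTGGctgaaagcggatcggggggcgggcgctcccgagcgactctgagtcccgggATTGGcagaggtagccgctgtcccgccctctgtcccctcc
Idi1 chr13:8885356-8885655 (plus strand): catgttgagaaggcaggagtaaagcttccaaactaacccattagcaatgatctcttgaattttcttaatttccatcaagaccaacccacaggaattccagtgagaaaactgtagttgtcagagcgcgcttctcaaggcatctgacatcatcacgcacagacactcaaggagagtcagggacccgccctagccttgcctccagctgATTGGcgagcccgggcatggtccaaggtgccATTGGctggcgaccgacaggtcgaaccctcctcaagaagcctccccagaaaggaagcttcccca
Mvd chr8:122443373-122443672 (minus strand): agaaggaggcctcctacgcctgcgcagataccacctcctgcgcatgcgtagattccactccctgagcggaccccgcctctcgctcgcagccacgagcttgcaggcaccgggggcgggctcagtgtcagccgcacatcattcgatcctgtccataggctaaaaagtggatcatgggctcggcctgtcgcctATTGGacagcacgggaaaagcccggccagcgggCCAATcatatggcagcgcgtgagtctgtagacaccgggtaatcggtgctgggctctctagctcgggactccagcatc
Hsd17b7 chr1:169969156-169969455 (minus strand): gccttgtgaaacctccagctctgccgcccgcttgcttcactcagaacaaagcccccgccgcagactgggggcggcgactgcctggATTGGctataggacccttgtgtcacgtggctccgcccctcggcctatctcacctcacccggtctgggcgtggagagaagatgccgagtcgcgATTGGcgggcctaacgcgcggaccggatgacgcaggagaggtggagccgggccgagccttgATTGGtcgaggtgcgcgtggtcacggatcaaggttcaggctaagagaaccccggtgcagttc
Ch25h chr19:34475099-34475398 (minus strand): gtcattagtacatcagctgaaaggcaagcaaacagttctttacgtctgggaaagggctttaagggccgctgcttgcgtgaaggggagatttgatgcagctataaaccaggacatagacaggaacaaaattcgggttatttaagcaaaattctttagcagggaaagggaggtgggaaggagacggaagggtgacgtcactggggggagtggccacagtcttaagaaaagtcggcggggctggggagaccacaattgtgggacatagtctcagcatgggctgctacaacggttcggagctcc

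Hmgcs1 held 1 sterol regulatory element, 137 bases before the start, with 4 NF-Y boxes. Idi1 and Mvd held 2 boxes each, Hsd17b7 held 3, and the Ch25h window held neither motif. Over 31 promoters of the 23 genes that matched the table, 1 (3.23%) held the element and 21 (67.7%) the box; over all 32851 promoters of the table the shares were 1.24% and 37.4%. Among the 18 promoters of synthesis enzymes 14 (77.8%) held the box. Fdps, Fdft1, Sqle, Stard4 and Npc1 have no entry there. A match describes letters only, and the strict consensus misses sites that differ from it by a letter.

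In keratinocyte-like cells 3 of the 28 genes were lower and 1 was higher, against 7.26% lower and 7.40% higher over all genes tested. The direction was shared more widely than the calls: 18 of 18 enzymes had a ratio below 0, with a median of -0.43, where 53.0% of all genes did. Fdps stood at 99.2 CPM in irradiated and 158 CPM in control cells (-0.67, -0.73 to -0.62), Hsd17b7 at 29.0 CPM in irradiated and 46.7 CPM in control cells (-0.69, -0.79 to -0.58), and Mvd at 8.17 CPM in irradiated and 13.4 CPM in control cells (-0.71, -0.91 to -0.52). Sqle (-0.58), Idi1 (-0.56) and Insig1 (-0.56) came just short of the fold. At the looser rule of a log2 ratio of at least 0.32 in size, 15 of the 28 were lower, against 13.2% of all genes.

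Most of the keratinocyte-like enzymes had many UMIs. Hmgcs1, from 6535 irradiated and 11807 control UMIs, stood at 169 CPM in irradiated and 220 CPM in control cells (-0.38, -0.42 to -0.33). Sc5d was the exception to the shared difference, at 29.3 CPM in irradiated and 31.2 CPM in control cells (-0.09, -0.20 to 0.02). The largest cluster of the class was cluster 10 (Krt5, Krt14) among irradiated cells and cluster 12 (Krt5, Krt14, Krt6a) among control cells. Mitosis genes summed to 2069 CPM in irradiated and 1977 CPM in control cells of cluster 12. In cluster 10 they summed to 67.5 CPM in irradiated and 109 CPM in control cells. With both libraries summed, the enzymes stood at 949 CPM in cluster 12 and 556 CPM in cluster 10. With clusters weighted alike the summed ratio was -0.28 and 0 genes passed the rule as lower; Fdps, Hsd17b7 and Mvd then had -0.39, -0.40 and -0.37.

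In mesenchymal-like cells, the collagen-producing cells from which ectopic bone arises, 1 of the 28 genes was lower and 1 was higher, where 6.85% of all genes were lower and 12.9% higher. The share lower is under the background, so the count does not set the genes apart in this class. The 1 lower gene was Mvd, at 4.75 CPM in irradiated and 7.26 CPM in control cells (-0.61, -0.97 to -0.27). Ratios below 0 were nevertheless common, in 17 of 18 enzymes (median -0.24), against 52.4% of all genes. Fdps stood at 39.6 CPM in irradiated and 55.6 CPM in control cells (-0.49, -0.61 to -0.37), Cyp51 at 34.3 CPM in irradiated and 46.4 CPM in control cells (-0.43, -0.56 to -0.31), and Hsd17b7 at 18.2 CPM in irradiated and 16.8 CPM in control cells (0.12, -0.07 to 0.30).

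At the looser rule (0.32 on the log2 scale) 7 of the 28 genes were lower in mesenchymal-like cells, against 14.1% of all genes. Irradiated cells of this class lay mostly in cluster 8 (50.7%) and control cells most often in cluster 4 (35.3%). With clusters weighted alike the summed ratio was -0.13 and 0 genes were lower. Fat cell markers moved with the group: 8 of 8 were higher in irradiated cells, summing to 437 CPM in irradiated and 16.1 CPM in control mesenchymal-like cells. Their part in the enzyme levels was not tested.

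In endothelial-like cells 3 of the 28 genes were lower and 0 were higher, against 4.27% lower and 9.02% higher over all genes tested. Fdps stood at 25.4 CPM in irradiated and 38.2 CPM in control cells (-0.59, -0.87 to -0.32), and Sqle at 9.22 CPM in irradiated and 15.2 CPM in control cells (-0.72, -1.18 to -0.27). Nsdhl, a dehydrogenase that removes sterol carbon, stood at 6.26 CPM in irradiated and 11.4 CPM in control cells (-0.86, -1.43 to -0.33), but its ratio turned to 0.15 in thinned cells. At the looser rule (0.32 on the log2 scale) 8 of the 28 were lower, against 8.71% of all genes. The enzyme median was -0.30, with 15 of 18 below 0. Mesenchymal markers summed to 826 CPM in irradiated and 1667 CPM in control endothelial-like cells (11 of 12 lower), neutrophil markers to 344 CPM in irradiated and 111 CPM in control cells, and macrophage markers to 247 CPM in irradiated and 152 CPM in control cells. Marker RNA of keratinocyte-, mesenchymal- and sebocyte-like cells would carry 22.4 CPM of enzyme transcripts in irradiated and 35.9 CPM in control endothelial-like cells, and after subtraction the summed ratio was -0.31. The part of neutrophil and macrophage RNA was not tested.

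In neutrophil-like cells 21 of the 28 genes reached 20 UMIs, 6 of these were lower and 0 higher. Over all genes tested in this class 24.0% were lower and 5.15% higher, so the share of the genes is near the background. Ebp, the sterol isomerase, stood at 7.55 CPM in irradiated and 26.4 CPM in control cells (-1.80, -2.40 to -1.23), and Fdps at 3.51 CPM in irradiated and 10.6 CPM in control cells (-1.59, -2.50 to -0.69). Srebf1 stood at 3.86 CPM in irradiated and 11.4 CPM in control cells (-1.56, -2.43 to -0.70), and Stard4 at 1.93 CPM in irradiated and 5.68 CPM in control cells, from 11 irradiated and 14 control UMIs. Cyp51 (-0.86) and Insig2 (-0.70, -1.37 to -0.01) were also lower. With the trimmed mean scaling 3 genes passed, and with a minimum of 100 UMIs 1 did. The share of all genes that passed at these settings was not computed. Irradiated cells of this class lay mostly in cluster 6 (S100a9, Ccl3, 55.1%) and control cells in cluster 1 (S100a9, S100a8, 78.0%).

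Marker RNA of other cells was higher in control neutrophil-like cells, with keratinocyte markers at 475 CPM in irradiated and 1390 CPM in control cells. That RNA, with mesenchymal and sebocyte markers, would carry 16.1 CPM of enzyme transcripts in irradiated and 53.6 CPM in control cells, and after subtraction the summed ratio was -0.29. In dendritic-like cells 23 of the 28 genes reached 20 UMIs; 1 was lower and 0 higher, against 5.41% lower and 6.37% higher over all genes. The lower gene was Fdft1, at 6.22 CPM in irradiated and 15.4 CPM in control cells (-1.31, -2.36 to -0.33), from 14 irradiated and 27 control UMIs. Pmvk stood at 162 CPM in irradiated and 158 CPM in control dendritic-like cells, and Fdps at 59.5 CPM in irradiated and 58.9 CPM in control cells, so these enzymes differed by less than their counting error there.

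**Figure D3:**
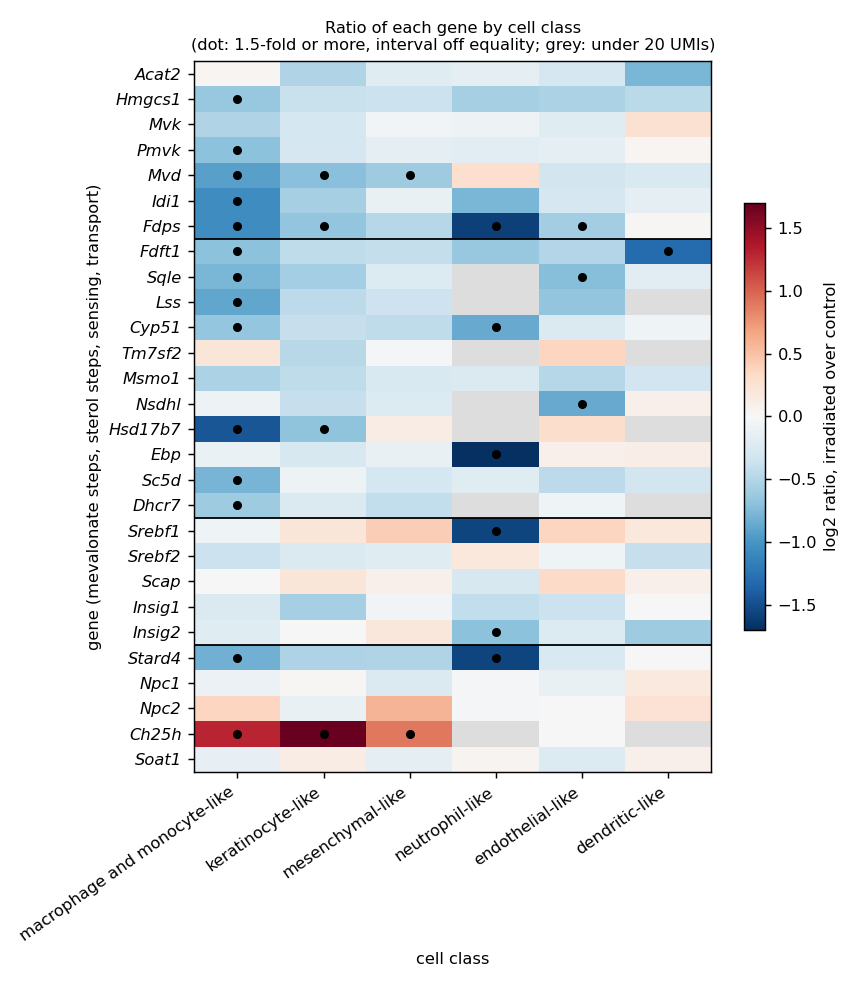
Log2 ratio of irradiated over control for each of the 28 genes (rows, split into mevalonate steps, sterol steps, sensing and transport) in the 6 classes (columns); blue is lower and red higher in irradiated cells, a dot marks a call and grey marks under 20 UMIs. Calls of lower level gather in the macrophage and monocyte-like column (13 of 28, against 11.5% of all genes). Fdps is marked in 4 classes, and Ch25h is the 1 gene marked as higher.

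Across the 6 classes Fdps was called lower in 4, Mvd in 3, and Fdft1, Sqle, Cyp51, Hsd17b7 and Stard4 in 2 each. Hmgcs1, Idi1, Fdft1, Cyp51, Msmo1 and Sc5d had ratios below 0 in all 6 classes, Msmo1 without passing the rule in any (-0.54 to -0.24). No enzyme was called higher in any of the 6 classes, where 5.15% to 12.9% of all genes were. The share of all genes called lower ran from 4.27% in endothelial-like to 24.0% in neutrophil-like cells, so calls in different classes do not weigh alike. The Fdps call in neutrophil-like cells rests on 20 irradiated and 26 control UMIs.

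Of the 5 sensing genes, Srebf1 and Insig2 were called, both in neutrophil-like cells, and the others in no class. Srebf2, which encodes the SREBP with the strongest action on cholesterol genes, was called in 0 of 6 classes, with 34.3 CPM in irradiated and 44.3 CPM in control macrophage and monocyte-like cells (-0.37, -0.51 to -0.23) and ratios from -0.39 to 0.18 over the 6 classes. Scap had ratios from -0.27 to 0.32. Insig1, itself an SREBP target, lay below 0 in all 6 classes, from -0.56 in keratinocyte-like cells (17.2 CPM in irradiated, 25.3 CPM in control) to -0.01 in dendritic-like cells, and was called in none. Insig2 ranged from -0.70 to 0.19.

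Srebf1, whose product acts mainly on fatty acid genes, was lower in neutrophil-like cells alone by the rule. It stood at 22.6 CPM in irradiated and 16.8 CPM in control mesenchymal-like cells (0.42, 0.25 to 0.59), and at 21.2 CPM in irradiated and 16.6 CPM in control endothelial-like cells (0.36, 0.03 to 0.69). Its ratios over the 6 classes ran from -1.56 to 0.42, and the difference between classes was not tested. Fat cell markers summed to 437 CPM in irradiated and 16.1 CPM in control mesenchymal-like cells, and macrophage markers to 349 CPM in irradiated and 119 CPM in control cells. Their part in the Srebf1 level was not tested.

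Of the transport genes, Stard4, a carrier that moves cholesterol between membranes and is a target of SREBP2, was lower in macrophage and monocyte-like cells, at 6.86 CPM in irradiated and 12.1 CPM in control cells (-0.82, -1.11 to -0.52). It stood at 20.7 CPM in irradiated and 29.9 CPM in control keratinocyte-like cells (-0.53) and at 11.2 CPM in irradiated and 16.0 CPM in control mesenchymal-like cells (-0.51), both short of the fold. Npc2, which lifts cholesterol out of the lysosome, went the other way: it stood at 1673 CPM in irradiated and 1294 CPM in control macrophage and monocyte-like cells (0.37, 0.35 to 0.39) and at 510 CPM in irradiated and 340 CPM in control mesenchymal-like cells (0.58, 0.55 to 0.62), which is just short of the fold. Macrophage and monocyte-like RNA, rich in Npc2, also moved there, with macrophage markers at 349 CPM in irradiated and 119 CPM in control mesenchymal-like cells; its part was not tested.

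Npc1, the lysosomal membrane partner of Npc2, kept between -0.24 and 0.17 over the 6 classes. Soat1, which esterifies cholesterol for storage in droplets, kept between -0.23 and 0.12, with 243 CPM in irradiated and 268 CPM in control macrophage and monocyte-like cells. Neither was called in any class.

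Ch25h was the 1 gene of the 28 called higher, in 3 of the 4 classes where it reached 20 UMIs. It encodes cholesterol 25-hydroxylase, an interferon-inducible enzyme whose product, 25-hydroxycholesterol, is known to hold SREBP processing back. In keratinocyte-like cells it stood at 10.2 CPM in irradiated and 3.17 CPM in control cells (1.68, 1.42 to 1.95), in macrophage and monocyte-like cells at 4.89 CPM in irradiated and 1.99 CPM in control cells (1.30, 0.75 to 1.89), and in mesenchymal-like cells at 5.27 CPM in irradiated and 2.82 CPM in control cells (0.90, 0.52 to 1.28). Endothelial-like cells held the highest level and no difference beyond counting error, at 30.0 CPM in irradiated and 29.9 CPM in control cells (0.00, -0.26 to 0.27).

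At full depth 9.28% of irradiated and 4.18% of control keratinocyte-like cells carried a Ch25h UMI, 2.55% of irradiated and 1.49% of control macrophage and monocyte-like cells, 7.37% of irradiated and 5.11% of control mesenchymal-like cells, and 15.7% of irradiated and 22.4% of control endothelial-like cells. In thinned keratinocyte-like cells 1.61% (0.983 to 2.47) of irradiated and 0.588% (0.304 to 1.02) of control cells had a UMI, and in thinned macrophage and monocyte-like cells 0.911% (0.578 to 1.36) of irradiated and 0.315% (0.116 to 0.685) of control cells. Thinned mesenchymal-like cells had 0.631% (0.172 to 1.61) of irradiated and 0.483% (0.241 to 0.862) of control cells. Thinned endothelial-like cells had 3.12% (1.57 to 5.51) of irradiated and 3.57% (2.19 to 5.45) of control cells. The intervals of the thinned shares overlap in each of these classes. They rest on few cells with a UMI, such as 23 irradiated and 6 control macrophage and monocyte-like cells. Neutrophil-like cells, with 3 irradiated UMIs and 0 control UMIs (1.22 CPM in control cells at a limit of 3 counts), and dendritic-like cells, with 6 irradiated UMIs and 0 control UMIs (1.71 CPM in control cells at the same limit of 3 counts), were too low for a ratio. In thinned neutrophil-like cells 0.0917% (0.00232 to 0.510) of irradiated cells carried a UMI. In mesenchymal-like cells the call was lost in thinned cells, where the ratio was 0.71.

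**Figure D4:**
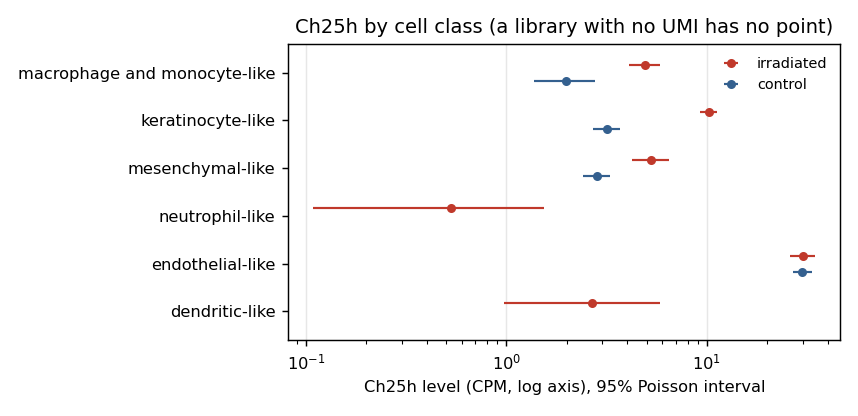
Level of Ch25h (CPM, log axis) in the 6 classes, red for irradiated and blue for control, with 95% Poisson intervals; control neutrophil-like and dendritic-like cells have no point because they hold 0 UMIs. The intervals lie apart in macrophage and monocyte-like, keratinocyte-like and mesenchymal-like cells, while both endothelial-like points sit near 30 CPM (30.0 and 29.9).

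Within clusters the enzyme difference was not uniform. Of 22 clusters of the 6 classes that held 50 or more cells of both libraries, 20 had a summed ratio below 0, 14 had an interval wholly below 0 and 2 had one wholly above. In macrophage and monocyte-like cells 6 of 6 clusters were below 0. Cluster 2, led by the complement gene C1qc and Ccl8, had 212 CPM in irradiated and 369 CPM in control cells (-0.80, -0.92 to -0.68), and cluster 16, the Lyz2 and Chil3 cells, 268 CPM in irradiated and 306 CPM in control cells (-0.19, -0.39 to 0.01).

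Among keratinocyte-like clusters, cluster 10 (Krt5, Krt14) had 458 CPM in irradiated and 742 CPM in control cells (-0.70, -0.76 to -0.63). Cluster 20, led by the wound-edge keratins Krt6b and Krt16, had 1420 CPM in irradiated and 1260 CPM in control cells (0.17, 0.12 to 0.22). Among mesenchymal-like clusters, cluster 14, led by Thbs4, a matrix protein of tendon, had 359 CPM in irradiated and 560 CPM in control cells (-0.64, -0.73 to -0.56), while cluster 4, led by Col1a1, had 465 CPM in irradiated and 397 CPM in control cells (0.23, 0.14 to 0.31). Cluster 4 held 65 irradiated and 821 control cells, and cluster 20 held 63 irradiated and 323 control cells.

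**Figure D5:**
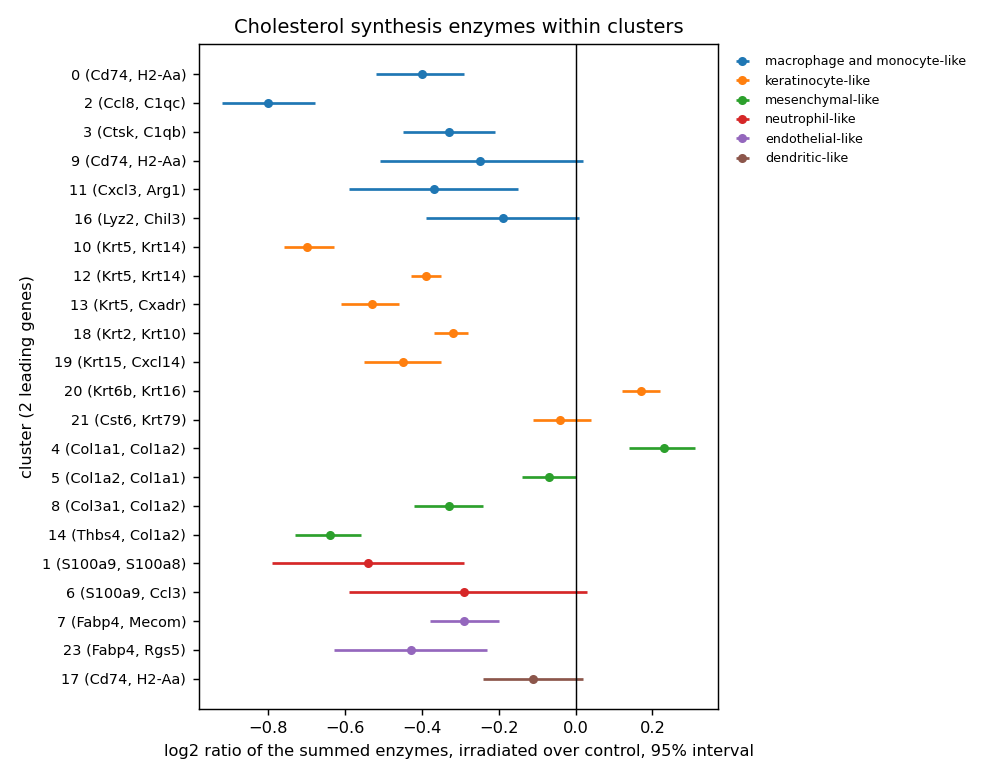
Log2 ratio (irradiated over control) of the summed synthesis enzymes in clusters that held 50 or more cells of both libraries (6 classes), coloured by class, with 95% intervals of counting error. Most points lie left of 0, down to -0.80 in cluster 2, and clusters 4 (0.23) and 20 (0.17) lie right of it.

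Levels of the genes across 33 clusters, both libraries summed, were compared with the summed level of the other enzymes in the same cluster, as a description, since clusters share libraries and depth. Pearson's r of log2(CPM + 1) was 0.96 for Cyp51, 0.94 for Idi1 and Hsd17b7, 0.92 for Fdps and 0.91 for Hmgcs1, Fdft1 and Sqle. Ebp had 0.67 and Sc5d 0.00, the value for Sc5d being 0.60 without the sebocyte-like cluster. Soat1 (-0.21, or -0.74 without the sebocyte-like cluster), Npc2 (-0.36), Ch25h (-0.15) and Npc1 (-0.13) did not follow the enzymes. The sebocyte-like cluster had the highest level of 17 of the 18 enzymes, with Msmo1 at 2404 CPM against a median of 33.5 CPM over clusters and Idi1 at 1990 CPM against 28 CPM; Sc5d peaked at 107 CPM in a Schwann-like cluster. Soat1 peaked in the sebocyte-like cluster at 2589 CPM, Npc2 in cluster 9 of the macrophage and monocyte-like cells at 1945 CPM, and Ch25h in endothelial-like cluster 7 at 33.1 CPM.

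Neighbouring pathways from lists made for this tissue moved in part with the enzymes. Of the fatty acid synthesis genes, the other arm under SREBP control, 5 of 13 measured (38.5%, against 11.5% of all genes) were lower in macrophage and monocyte-like cells and 0 higher, with Scd1, a desaturase, at 2.72 CPM in irradiated and 7.01 CPM in control cells (-1.36) and Fasn, the fatty acid synthase, at 3.10 CPM in irradiated and 6.19 CPM in control cells (interval -1.43 to -0.57). In keratinocyte-like cells 5 of 14 (35.7%, against 7.26% of all genes) were lower, among them Scd2 at 38.9 CPM in irradiated and 93.9 CPM in control cells (-1.27). In mesenchymal-like cells 4 of 15 were lower (26.7%, against 6.85% of all genes) and 2 were higher (13.3%, which is near the 12.9% of all genes), with Scd1 at 93.2 CPM in irradiated and 31.8 CPM in control cells (1.55), beside the fat cell markers given above. In endothelial-like cells 0 of 15 were lower (4.27% of all genes were) and 1 was higher (6.67%, under the 9.02% of all genes). That gene was Thrsp, at 27.2 CPM in irradiated and 4.82 CPM in control cells (2.50). In neutrophil-like cells 4 of 8 measured were lower (24.0% of all genes). In dendritic-like cells 1 of 10 was lower and 1 higher (10.0% each, beside 5.41% lower and 6.37% higher over all genes). The sterol trafficking list stayed near or under the background for lower genes in 3 classes. In macrophage and monocyte-like cells 1 of 14 was lower (7.14%, against 11.5% of all genes) and 2 were higher (14.3%, against 6.38%). In keratinocyte-like and mesenchymal-like cells 1 of 14 was lower in each (7.14%, against 7.26% and 6.85% of all genes). Tmem97, a sterol-responsive membrane protein, was the lower gene in these 3 classes, with 7.65 CPM in irradiated and 16.7 CPM in control macrophage and monocyte-like cells (-1.13).

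Of 8 genes listed for the oxysterol receptor LXR and sterol export, 4 were higher (12.9% of all genes were) and 0 lower in mesenchymal-like cells. Fat cell markers (437 CPM in irradiated and 16.1 CPM in control cells) and macrophage markers (349 CPM in irradiated and 119 CPM in control cells) moved with them, and their part was not tested. The exporter Abcg1 stood at 8.07 CPM in irradiated and 2.96 CPM in control cells (1.45) and Nr1h3, which encodes LXR alpha, at 5.67 CPM in irradiated and 1.28 CPM in control cells (2.14). In endothelial-like cells 2 of 8 were higher (25.0%, against 9.02% of all genes) and 0 lower. These were Abcg1 (0.64) and Nr1h3 (0.65, 0.09 to 1.21). In keratinocyte-like cells 1 of 8 was higher, Abcg1 (1.09), which is 12.5% against 7.40% of all genes, and 0 were lower. In macrophage and monocyte-like cells 0 of 8 genes of the list passed the rule in either direction. Of the isoprenoid branch, which draws on farnesyl diphosphate for other products, 1 of 11 genes was lower in macrophage and monocyte-like cells (9.09%, near the 11.5% of all genes) and 0 in keratinocyte-like cells.

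Lists outside the sterol pathway, of interferon-stimulated and of mitosis genes, also differed between the libraries. Interferon-stimulated genes were higher in irradiated cells, 11 of 11 in macrophage and monocyte-like, keratinocyte-like, mesenchymal-like, endothelial-like and dendritic-like cells and 10 of 10 measured in neutrophil-like cells (5.15% to 12.9% of all genes were higher in these classes), with Isg15 at 554 CPM in irradiated and 113 CPM in control macrophage and monocyte-like cells (2.30). Mitosis genes were lower for 9 of 10 in macrophage and monocyte-like cells (11.5% of all genes), 3 of 10 in keratinocyte-like cells (7.26%), 6 of 10 in mesenchymal-like cells (6.85%), 4 of 5 measured in neutrophil-like cells (24.0%), 2 of 10 in endothelial-like cells (4.27%) and 5 of 5 measured in dendritic-like cells (5.41%). Without cells that held at least 2 UMIs of the mitosis list, the summed enzyme ratio was -0.59 in macrophage and monocyte-like, -0.44 in keratinocyte-like and -0.25 in mesenchymal-like cells. The part of interferon-stimulated genes in the enzyme levels was not tested.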

How the data were processed

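Unsorted cells of 2 libraries (1 per group) were analysed. The authors deposited whole-number UMI counts for every gene and barcode, not normalised. Per the submitters' processing notes they come from Cell Ranger 5 and mm10, and per the file headers the version is 5.0.1. The 28 genes and all lists were chosen with earlier results of these data known.

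Cells were kept with at least 500 genes, 1000 UMIs and at most 10% mitochondrial UMIs, from 8302 irradiated barcodes (111753092 UMIs) and 11369 control barcodes (180080740 UMIs). The mitochondrial limit was exceeded by 6.13% of irradiated and 14.9% of control barcodes. Scrublet (scanpy 1.11.5) called 74 irradiated (1.03%) and 529 control (5.73%) doublets, at thresholds of 0.359 and 0.237 for irradiated and control, which were left out; 32 barcode sequences occurred in both libraries. Counts scaled to 10000 per cell, 2000 variable genes without the 28 (3 of which would have been among them), 30 components, 15 neighbours and Leiden resolution 1.0 gave clusters, which 21 marker sets then named, by 3 or more markers that reached 50 CPM and 2-fold over the median cluster; rebuilt names may differ from the study's. UMIs were then summed per class and library, and ratios got exact conditional Poisson intervals, shares exact Clopper-Pearson intervals. The calculation was tested on simulated data.

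All 28 genes are named, in full those called in a class, at most 8 by size; of other lists at most 3 called genes with at least 100 UMIs per class. Further genes given with their values were chosen for their role after those values were seen. Alternatives changed scaling, weighting, depth, doublets, filters, clustering and thresholds. Promoter sequences came from RefSeq.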

Additional observations from a re-analysis of the deposited data

Results flagged for a closer look

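In 2 clusters the summed synthesis enzymes went the other way from clusters of the same class whose intervals lay below 0. The ratio was 0.23 in cluster 4 of the mesenchymal-like cells (465 CPM in irradiated and 397 CPM in control cells), and 0.17 in cluster 20 of the keratinocyte-like cells (1420 CPM in irradiated and 1260 CPM in control cells). The difference from the other clusters was not tested.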

How the results depend on the processing

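The summed enzyme ratio kept its sign in 14 of 14 alternatives in each class (13 of 13 in dendritic-like cells, since the stricter cell filter left no cluster with that name). It ran from -0.69 to -0.43 in macrophage and monocyte-like, -0.50 to -0.28 in keratinocyte-like, -0.37 to -0.13 in mesenchymal-like, -0.62 to -0.15 in neutrophil-like, -0.46 to -0.27 in endothelial-like and -0.32 to -0.05 in dendritic-like cells. Of these values 66 stayed within the counting interval and 17 moved beyond it. With clusters weighted alike the ratio was -0.43 in macrophage and monocyte-like, -0.28 in keratinocyte-like and -0.13 in mesenchymal-like cells. With every cell weighing alike it was -0.50 in keratinocyte-like, -0.37 in mesenchymal-like and -0.46 in endothelial-like cells. In thinned cells it was -0.66 in macrophage and monocyte-like, -0.34 in mesenchymal-like and -0.32 in dendritic-like cells. The trimmed mean scaling gave -0.45 in macrophage and monocyte-like and -0.15 in neutrophil-like cells. The stricter cell filter gave -0.42 in keratinocyte-like and -0.34 in mesenchymal-like cells, keeping doublets -0.42 in keratinocyte-like cells, and leaving out Ebp -0.69 in macrophage and monocyte-like cells. Subtracting marker RNA of other classes, an alternative chosen after seeing the data like those without mitosis cells, without shared barcodes and without small clusters, gave -0.51 in macrophage and monocyte-like and -0.29 in neutrophil-like cells.

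Counts of genes called lower moved with the fold: at a log2 ratio of 0.32 or more in size they were 15 in keratinocyte-like, 8 in endothelial-like, 7 in mesenchymal-like and 3 in dendritic-like cells, and at 2-fold 3 in macrophage and monocyte-like and 0 in keratinocyte-like, mesenchymal-like and endothelial-like cells. With clusters weighted alike they were 7 in macrophage and monocyte-like and 0 in keratinocyte-like and mesenchymal-like cells. The trimmed mean gave 7 in macrophage and monocyte-like and 3 in neutrophil-like cells. In thinned cells they were 3 in neutrophil-like, 2 in mesenchymal-like and 1 in endothelial-like cells, and with at least 100 UMIs 1 in neutrophil-like and 0 in dendritic-like cells. Counts called higher were 3 in mesenchymal-like, 2 in macrophage and monocyte-like and 2 in endothelial-like cells at that looser fold, and 0 in mesenchymal-like cells at 2-fold and in thinned cells. Already at 1.5-fold 12.9% of all genes were higher in mesenchymal-like cells. Shares of all genes at the looser fold were computed for lower calls in keratinocyte-like (13.2%), mesenchymal-like (14.1%) and endothelial-like cells (8.71%). The other counts of this paragraph have no such share and do not set the genes apart from all genes. Of single genes called in a class, 72 values stayed within their interval, 17 moved, and Nsdhl in endothelial-like cells turned to 0.15 in thinned cells. Where no value above shows it, the cause was not tested. No paired analysis was possible because there is 1 library per group. Low counts left 21 of the 28 genes measured in neutrophil-like and 23 in dendritic-like cells.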

Other observations

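Ddit3, a stress-induced transcription factor of the unfolded protein response list, was higher in 5 of the 6 classes with ratios. It stood at 38.4 CPM in irradiated and 19.5 CPM in control macrophage and monocyte-like cells (0.98), and at 32.9 CPM in irradiated and 17.2 CPM in control mesenchymal-like cells (0.94). Most other genes of the list were not called with it. Of the genes measured, 1 of 9 was higher and 1 lower in macrophage and monocyte-like cells (6.38% higher and 11.5% lower over all genes). The counts were the same in neutrophil-like cells (5.15% and 24.0% over all genes). In dendritic-like cells 1 of 7 was higher and 1 lower (6.37% and 5.41% over all genes). In endothelial-like cells 1 of 10 was higher (10.0%, near the 9.02% of all genes) and 0 lower. In mesenchymal-like cells 3 of 10 were higher (30.0%, against 12.9% of all genes) and 0 lower. Sdf2l1 was the lower gene in macrophage and monocyte-like (-0.71) and dendritic-like cells (-0.74). In keratinocyte-like cells the list had 0 of 10 genes higher and 2 lower, where 7.26% of all genes were lower. Trib3, a target of the same stress arm, stood at 5.91 CPM in irradiated and 12.1 CPM in control cells (-1.03). Stard3, which tethers late endosomes and carries sterol, was higher in macrophage and monocyte-like cells, at 49.3 CPM in irradiated and 30.7 CPM in control cells (0.68), and in dendritic-like cells, at 37.3 CPM in irradiated and 18.9 CPM in control cells (0.98). Vldlr, a lipoprotein receptor, stood at 9.28 CPM in irradiated and 3.28 CPM in control mesenchymal-like cells (interval 1.19 to 1.81). Fat cell and macrophage markers were also higher in irradiated cells of this class, and their part was not tested.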
